A study of Mus musculus with 2 samples.

Results

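The cytosolic ribosomal protein genes were described in 2 single-cell libraries of cultured mouse spermatogonia, 1 of cells given an siRNA against Chd4 and 1 of cells given a control siRNA. The genes were chosen by name: symbols beginning with Rpl or Rps and a digit, together with Rplp0, Rplp1, Rplp2 and Rpsa. Names of annotated pseudogenes ending in -ps, the Rps6k kinases and 7 paralogs with separate names were left out. The rule gave 79 genes of the 26893 named in the files. The gene list read here ended before the last 1105 of 27998 rows, so any members among those rows are missing. The 79 comprised 46 genes of the large subunit, 30 of the small subunit, the retrocopies Rps27rt and Rpl6l, and Rps19bp1, whose product binds a ribosomal protein but is not one. All 79 were measured in both libraries, with at least 1425 UMIs (unique molecular identifiers, each marking 1 captured RNA) in germ cells of either library. No measured value was used in this naming rule. The members described singly below and the gene lists were chosen with earlier results of these data known.

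Each ribosome is built from ribosomal RNA and one copy of most of these proteins, so their genes are expressed at high and matched levels in growing cells. Their mRNAs are short, and many begin with a 5′ terminal oligopyrimidine tract, a C followed by further pyrimidines, which places their translation under the control of the mTOR pathway. Loss of single members is known for effects on particular tissues: in humans, mutations of many of these genes cause Diamond-Blackfan anaemia. In male germ cells, genes on the X chromosome are silenced at meiosis, and autosomal paralogs of some X-linked members are known to stand in for them.

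Undifferentiated spermatogonia, the population with the stem cells of the testis, were isolated from adult C57BL/6 mice by THY1 selection. They were cultured with GDNF and bFGF on SNL76/7 cells, a mitomycin-treated fibroblast feeder line. After release from the feeders, the cells received 75 pmol of siRNA with 2 µL Lipofectamine for 24 h. The first group received Chd4 siRNA, against an ATPase subunit of the nucleosome remodeller NuRD, and the second a non-targeting control siRNA. Both groups are otherwise of the same strain and culture. Cells of 3 biological replicates were pooled per group before capture, so each group is 1 library. No test across samples was possible, all intervals cover counting error only, and the siRNA and the library cannot be told apart.

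The Chd4 siRNA library held 858 cells of at least 1000 UMIs and the control library 816. Cells with more Dazl and Ddx4 UMIs than Col1a1 and Fn1 UMIs were counted as germ cells, 760 in the Chd4 siRNA library and 728 in the control library. Cells with the reverse were counted as feeder cells, 89 in the Chd4 siRNA library and 79 in the control library. Germ cells had a median of 15582 UMIs under Chd4 siRNA and 15282 under control siRNA, and feeder cells 40805 under Chd4 siRNA and 38655 under control siRNA. The 12 germ cell markers summed to 2785 CPM (UMIs scaled to a class total of 1000000) in Chd4 siRNA germ cells and 2574 in control germ cells, and all 12 were above 10 CPM. The fibroblast markers summed to 134 CPM in Chd4 siRNA and 131 CPM in control germ cells, against 6269 CPM in Chd4 siRNA and 5535 CPM in control feeder cells. The markers of Leydig, macrophage, endothelial and peritubular myoid cells each summed to at most 15.3 CPM in germ cells. Sertoli markers summed to 18.4 CPM there under Chd4 siRNA and 18.1 CPM under control siRNA, mostly Sox9. Feeder cells also held Sox9, at 207 CPM under Chd4 siRNA and 221 CPM under control siRNA. Of the cell barcodes read, 799 in the Chd4 siRNA and 817 in the control library, 1 was shared.

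Chd4 itself was lower under Chd4 siRNA in both cell classes. It stood at 253 CPM (95% Poisson interval 244 to 262) in Chd4 siRNA germ cells and 536 CPM (523 to 549) in control germ cells, a log2 ratio of -1.08 (-1.15 to -1.02). In feeder cells it stood at 52.9 CPM under Chd4 siRNA and 155 CPM under control siRNA, a log2 ratio of -1.55 (-1.80 to -1.30). Both classes therefore carried the targeted difference, and feeder cells were no untreated comparison.

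Taken as a whole, the ribosomal protein genes held almost the same share of UMIs in both libraries. Here and below, shares are of the UMIs of named genes only. The members took 32.9% of germ cell UMIs under Chd4 siRNA and 34.1% under control siRNA, a log2 ratio of -0.05 (-0.06 to -0.05). In feeder cells they took 33.7% under Chd4 siRNA and 34.1% under control siRNA, a log2 ratio of -0.02 that turned to 0.01 with TMM factors and 0.03 with DESeq2 size factors. The median member had a log2 ratio of 0.01 in germ cells, where the median of all 8257 genes with at least 200 UMIs was 0.05. In feeder cells the median member stood at 0.07 and the median of all 4249 genes at 0.01.

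Below that near-constant total, the members split into a low tail and a narrow main body. In germ cells, 7 of the 79 members (8.86%) had a log2 ratio of -0.5 or below, where 1.39% of all genes tested did. None had a ratio of 0.5 or above, where 0.957% of all genes did. The 7 were Rps27rt, Rpl29, Rps28, Rps29, Rpl35, Rpl38 and Rpl6l. Rpl6l at -0.53 was the member just inside the bound and Rps27 at -0.49 the one just outside. At a looser bound of -0.3, 16 members were counted, the highest of them Rpl15 at -0.34. The next member, Rps26, stood at -0.19, and the other 63 members lay between that value and the 0.19 of Rpl4.

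**Figure D1:**
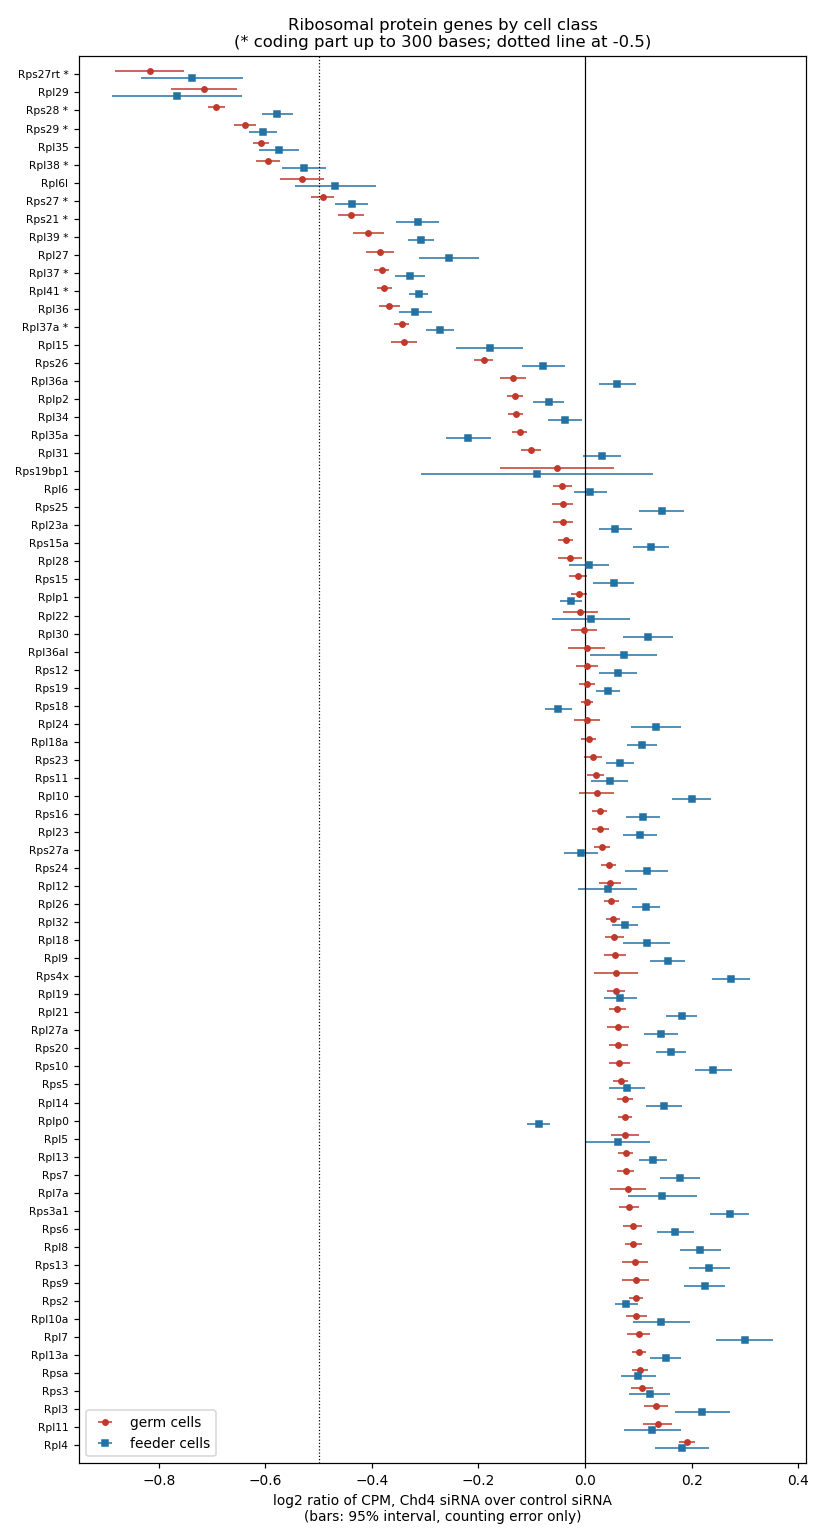
Log2 ratio of CPM, Chd4 siRNA over control siRNA, for 77 of the 79 members (rows, lowest germ cell ratio on top) in germ cells (red circles) and feeder cells (blue squares), with 95% counting intervals. The rows from Rps27rt to Rpl15 form a tail at -0.34 or below in germ cells, and members marked with an asterisk have a coding part of at most 300 bases.

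Among the small subunit genes, Rps28, whose protein lies at the exit of the mRNA channel, was the lowest. It had 4413 CPM (4376 to 4450) in Chd4 siRNA germ cells and 7127 CPM (7079 to 7176) in control germ cells, a log2 ratio of -0.69 (-0.71 to -0.68). In feeder cells it had 4866 CPM under Chd4 siRNA and 7259 under control siRNA, a log2 ratio of -0.58. The difference was thus of similar size in both cell classes. Rps29, a zinc-binding protein of the small subunit head, had 2576 CPM in Chd4 siRNA germ cells and 4011 in control germ cells, a log2 ratio of -0.64 (-0.66 to -0.62). In feeder cells Rps29 had 5500.3 CPM under Chd4 siRNA and 8360.3 under control siRNA, a log2 ratio of -0.60. Rps21, which takes part in the maturation of the small subunit, was lower by less, at 1905 CPM in Chd4 siRNA germ cells and 2582 in control germ cells, a log2 ratio of -0.44.

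Rps27, a zinc-binding small subunit protein, and its intronless copy Rps27rt were both in the tail. Rps27rt had 257 CPM (248 to 266) in Chd4 siRNA germ cells and 453 CPM (441 to 466) in control germ cells. Its log2 ratio of -0.82 (-0.88 to -0.75) was the lowest of the 79. Rps27 had 2578 CPM in Chd4 siRNA germ cells and 3627 in control germ cells, a log2 ratio of -0.49 (-0.51 to -0.47). All 90-base windows in the last 300 bases of Rps27, and 86.3% of those of Rps27rt, also occur in another annotated gene. Which genes these were was not recorded. The sources used here do not say how reads were split between genes that share sequence, so the values of Rps27 and Rps27rt are uncertain.

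Among the large subunit genes, Rpl29, Rpl35 and Rpl38 passed the bound. Rpl35, whose protein sits beside the exit of the peptide tunnel, had 4684 CPM (4645 to 4722) in Chd4 siRNA germ cells and 7137 CPM (7089 to 7186) in control germ cells, a log2 ratio of -0.61 (-0.62 to -0.59). In feeder cells it had 2815 CPM under Chd4 siRNA and 4189 under control siRNA, a log2 ratio of -0.57. Rpl38, known from the mouse Tail-short mutation and its effect on translation of Hox mRNAs, had 2187 CPM in Chd4 siRNA germ cells and 3302 in control germ cells, a log2 ratio of -0.59 (-0.62 to -0.57). Its feeder cell ratio was -0.53.

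Rpl29, a small basic protein of the large subunit, was measured at a lower UMI level than these. It had 286 CPM (277 to 296) in Chd4 siRNA germ cells and 469 CPM (457 to 482) in control germ cells, a log2 ratio of -0.71 (-0.78 to -0.65), and -0.77 in feeder cells. The row Rpl6l, annotated as a processed pseudogene, had 671 CPM in Chd4 siRNA germ cells and 969 in control germ cells, a log2 ratio of -0.53 (-0.57 to -0.49). Of the last 300 bases, 95.3% of the 90-base windows of Rpl35, 68.7% of those of Rps28, 58.8% of those of Rpl38 and 43.1% of those of Rpl29 occur in another annotated gene. Across 78 members, this share had a Spearman correlation of -0.18 with the germ cell log2 ratio, given as a description only.

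The remaining large subunit genes of the tail were Rpl39, Rpl27, Rpl37, Rpl41, Rpl36, Rpl37a and Rpl15, at log2 ratios of -0.41 to -0.34 in germ cells. Rpl41 encodes the shortest ribosomal protein, which bridges the subunits. It had 6018 CPM in Chd4 siRNA germ cells and 7813 in control germ cells, a log2 ratio of -0.38 (-0.39 to -0.36). Rpl39, a lining protein of the peptide tunnel, had 1375 CPM in Chd4 siRNA germ cells and 1824 in control germ cells, a log2 ratio of -0.41 (-0.44 to -0.38). Rpl15, a core protein of the large subunit, had 2125 CPM in Chd4 siRNA germ cells and 2689 in control germ cells. Their feeder cell ratios were -0.31 for Rpl41, -0.31 for Rpl39 and -0.18 for Rpl15.

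At the other end of the order stood Rpl4, Rpl11 and Rpl3, with 1257, 534 and 1209 coding bases. Rpl4, whose long loop lines the peptide tunnel, had 6436 CPM (6392 to 6482) in Chd4 siRNA germ cells and 5635 CPM (5592 to 5678) in control germ cells, a log2 ratio of 0.19 (0.18 to 0.21). Rpl11, a protein of the 5S particle, had 1876 CPM in Chd4 siRNA and 1706 in control germ cells, a log2 ratio of 0.14. Rpl3, which lies near the peptidyl transferase centre, had 2766 CPM in Chd4 siRNA and 2523 in control germ cells, a log2 ratio of 0.13. Rps18, the member with the most UMIs in control germ cells, had 9467 CPM under Chd4 siRNA and 9442 under control siRNA, a log2 ratio of 0.00 (-0.01 to 0.02). Rps6, the substrate of the S6 kinases, had a log2 ratio of 0.09. Counting error alone was small at this depth: 29 members had an interval wholly below 0 in germ cells and 37 one wholly above 0, so an interval that excludes 0 does not mark a member out.

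The members were also grouped by function, in lists chosen with earlier results of these data known, and by subunit. The 5S particle proteins Rpl5 and Rpl11 and the MDM2-binding Rpl23, which link ribosome assembly to p53, had log2 ratios of 0.08, 0.14 and 0.03 in germ cells, of which that of Rpl23 was -0.02 with TMM factors. The P stalk genes, whose proteins recruit translation factors, had ratios of -0.13 for Rplp2, -0.01 for Rplp1, 0.05 for Rpl12 and 0.08 for Rplp0. That of Rpl12 was -0.00 with TMM factors. Of 18 members whose human counterparts are mutated in Diamond-Blackfan anaemia, 3 were at -0.5 or below, namely Rpl35, Rps28 and Rps29, and none at 0.5 or above. Their median was -0.07, against 0.01 over all members. At -0.5 or below stood 8.86% of all 79 members and 1.39% of all genes tested, and the group counts are descriptions only. The large subunit members had a median of 0.01, with 3 of 46 at -0.5 or below, and the small subunit members 0.02, with 2 of 30.

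Many of the low members, but not all, had a short coding sequence. Of the 16 members at -0.3 or below, 10 had at most 300 coding bases, and of the 7 at -0.5 or below, 4 had. The cutoff of 300 coding bases was chosen after the values were seen. By the principal transcript of the annotation, 10 members have at most 300 coding bases: Rpl41, Rpl39, Rps29, Rps28, Rpl38, Rps21, Rps27, Rps27rt, Rpl37a and Rpl37. All 10 lay in the tail, between -0.82 and -0.34 in germ cells, with a median of -0.47. The other 68 members with a coding annotation had a median of 0.03 and a range of -0.71 to 0.19. Of these 68, the 5 in the tail were Rpl29 with 480 coding bases, Rpl35 with 369, Rpl27 with 408, Rpl36 with 315 and Rpl15 with 612. In feeder cells the 10 short members lay between -0.74 and -0.27, with a median of -0.38, and the other 68 had a median of 0.10.

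**Figure D2:**
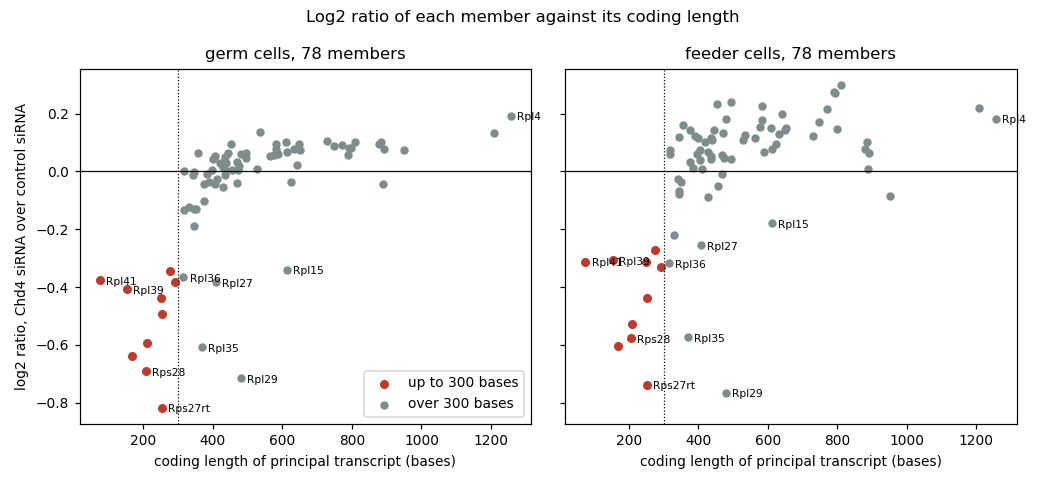
Log2 ratio, Chd4 siRNA over control siRNA, against coding length in bases for the 78 members with a coding annotation, in germ cells (left) and feeder cells (right). The 10 red points, up to 300 bases, lie between -0.82 and -0.34 in germ cells, and Rpl29, Rpl35, Rpl27, Rpl36 and Rpl15 are the low points among the longer members.

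Summed, the 10 short-coding members took 3.32% of germ cell UMIs under Chd4 siRNA and 4.60% under control siRNA, a log2 ratio of -0.47. The other 69 members together took 29.6% under Chd4 siRNA and 29.5% under control siRNA, a log2 ratio of 0.00. With TMM factors the log2 ratios were -0.52 for the short members and -0.05 for the others, and with DESeq2 size factors -0.51 and -0.03. In feeder cells the short members took 5.26% under Chd4 siRNA and 6.90% under control siRNA, a log2 ratio of -0.39. The others took 28.4% under Chd4 siRNA and 27.2% under control siRNA, a log2 ratio of 0.06. Across the 78 members the Spearman correlation of the log2 ratio with coding length was 0.79 in germ cells and 0.64 in feeder cells. With GC content it was -0.03 in germ cells and -0.18 in feeder cells, and with 3′ UTR length 0.10 in germ cells and 0.02 in feeder cells. Over all 79 members, the correlation with the median length of a gene's transcripts was 0.66 in germ cells and 0.59 in feeder cells. These are descriptions over genes of the same libraries and carry no test.

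The same UMIs were then read cell by cell, which describes the spread between cells and adds no separate support, since the short-coding members were set after their summed ratios were seen. The short-coding members took a median of 10.0% of a germ cell's ribosomal protein UMIs under Chd4 siRNA and 13.5% under control siRNA. Of the 760 germ cells of the Chd4 siRNA library, 755 (99.3%) lay below the median of the control germ cells. In feeder cells the medians were 15.8% under Chd4 siRNA and 19.8% under control siRNA, and 85 of 89 Chd4 siRNA cells lay below the control median. For the whole group's share of a cell's UMIs the overlap was much wider: 465 of 760 Chd4 siRNA germ cells lay below the control median, with medians of 32.3% under Chd4 siRNA and 34.0% under control siRNA. The cells of each library shared one capture and are not replicates of the siRNA.

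**Figure D3:**
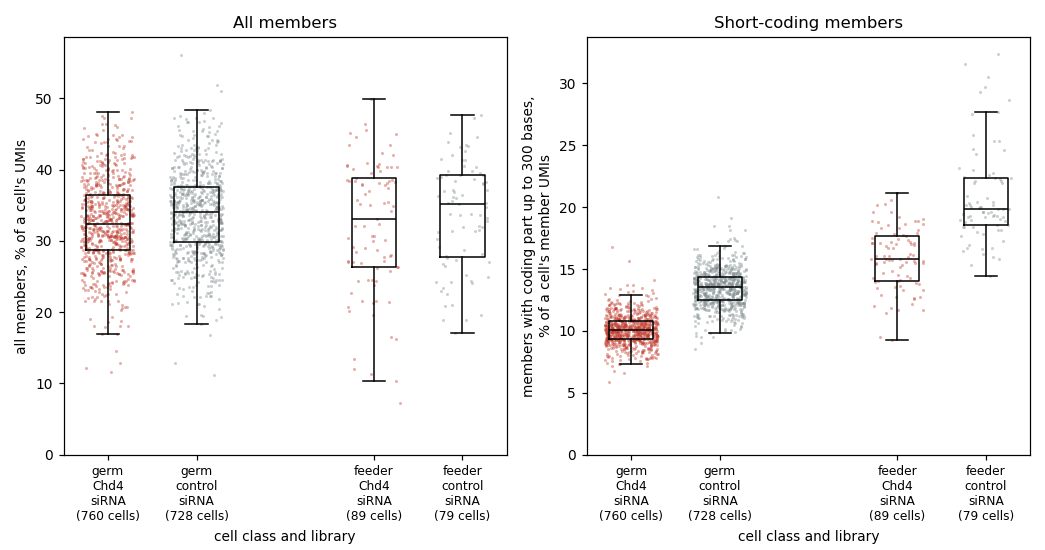
Share of each cell's UMIs in all 79 members (left) and share of its ribosomal protein UMIs in the 10 members with up to 300 coding bases (right), in percent, by cell class and library; points are cells, boxes show quartiles and median, and whiskers reach 1.5 interquartile ranges. The short-coding share had a median of 10.0% in Chd4 siRNA germ cells and 13.5% in control germ cells, with little overlap, whereas the total share overlapped broadly.

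Genes outside the group were compared by the same lengths. Of other genes with at most 300 coding bases, 205 passed the minimum of 200 UMIs in germ cells, and their median log2 ratio was -0.03, with 5.85% at -0.5 or below. Among the 8 of these with the most UMIs, Tmsb10, which binds actin monomers, stood at -0.39 and the metallothioneins Mt1 and Mt2 at -0.33 and -0.20. Cox7c, Serf2, Gng5, Sumo2 and Dynll1 stood between -0.15 and 0.08. Of the 10 members in that class, 40% were at -0.5 or below. By whole principal transcripts of at most 500 bases, 19 members had a median of -0.13 and 81 other genes -0.21, and 21.1% of the members and 11.1% of the other genes were at -0.5 or below. By longest coding transcript of at most 500 bases, 10 members had a median of -0.47 and 35 other genes -0.26. By the median length of a gene's transcripts, 13 members of at most 500 bases had a median of -0.37 and 220 other genes -0.04. Other genes with short transcripts thus also had medians below 0, and whether these lay above or below those of the members depended on the length measure. The part of transcript length in these values was not tested.

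The annotated transcription starts of the members were compared for the pyrimidine tract. In the RefSeq start table of GRCm38.p6, 60 of the 79 members matched, with 70 starts in all. A C at the start followed by at least 4 pyrimidines stood at 14 of these starts (20%), 1 each in 14 members, and at 2.51% of all 32851 starts of the table. The windows below show 5 bases before the annotated start and 25 from it, 5′ to 3′ on the gene's strand, with the tract in capitals. Rpl35, Rpl38, Rps27, Rps27rt and Rpl15 are shown as members of the low tail, and Rps18, Rps6 and Rpl28 as members near or above 0.
Rpl35, chr2:39005107-39005136, minus strand: ctttcCTCTTTCTCTCgaaccaggctgctt
Rpl38, chr11:114668575-114668604, plus strand: tcgttCTTTCCCCgttctcttcggttctca
Rps27, chr3:90213624-90213653, minus strand: tcgctCCTTTCCggcggtgacgacctccct
Rps27rt, chr9:114982715-114982744, minus strand: ccttgCTTTCCggcggtgacgacctcccta
Rpl15, chr14:18270962-18270991, minus strand: gccttCTTCCTTTCCTCTggcggcagccat
Rps18, chr17:33955641-33955670, minus strand: ccgctCTCTCTTCCacaggaggcctacacg
Rps6, chr4:86857343-86857372, minus strand: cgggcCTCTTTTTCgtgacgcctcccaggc
Rpl28, chr7:4792960-4792989, plus strand: tgtctCTCTTTCCgtctccggccgccatag

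The tract stood at the start of 6 of the 12 matched members at -0.3 or below, among them Rps27 and its copy Rps27rt, and of 8 of the 48 other matched members. Rpl35, with a tract of 11 bases, had a germ cell log2 ratio of -0.61, whereas Rps6 and Rps18, with 9 bases each, had 0.09 and 0.00, and Rpl28, with 8, had -0.03. Rps27 and Rps27rt share a run of 38 bases that begins at base 2 of Rps27 and base 1 of Rps27rt, which shows the copy relation of both genes at the start itself. Of the 4 members at -0.5 or below with a window in the table, 3 had the tract. A missing match says only that these letters do not stand at the annotated start.

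Other genes listed as having mRNAs with the same tract were mostly slightly higher under Chd4 siRNA. The lists of this paragraph were chosen with earlier results of these data known, so their counts describe the listed genes only. Of 20 listed tract genes measured, 19 had a germ cell log2 ratio above 0, where 63.6% of all genes tested did, and the median was 0.18. The other gene of the 20 was at -0.5 or below. Eef2, the translocation factor of elongation, stood at 0.28, with 2743 CPM in Chd4 siRNA germ cells and 2266 in control germ cells, and the initiation factors Eif4a2 and Eif3l at 0.23 each. Of 30 measured ribosome biogenesis genes, none reached -0.5 or 0.5 in germ cells, and their median was 0.07. The ones farthest from 0 were Taf1b, of RNA polymerase I initiation, at 0.24, Pes1, of large subunit assembly, at -0.24, and the H/ACA particle genes Nop10 at -0.21 and Dkc1 at 0.18.

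Annotated copies of ribosomal protein genes, which the naming rule left out, were also low. Of 13 such rows, 9 had at least 200 UMIs in germ cells, and 5 of the 9 stood at -0.5 or below, where 1.39% of all genes tested did. Their median log2 ratio was -0.58 and their range -0.70 to 0.29, and 8 of 9 were below the ratio of the parent gene. Rps26-ps1 had 191 CPM in Chd4 siRNA germ cells and 309 in control germ cells, a log2 ratio of -0.70 beside -0.19 for Rps26. Rpl10-ps3 had 176 CPM under Chd4 siRNA and 262 under control siRNA, a log2 ratio of -0.58 beside 0.02 for Rpl10. Rps2-ps6 had 26.9 CPM under Chd4 siRNA and 42.7 under control siRNA, a log2 ratio of -0.67 beside 0.10 for Rps2. The exception was Rpl13-ps3 at 0.29, beside 0.08 for Rpl13. Reads of a copy and its parent can be exchanged in counting, so these values are uncertain.

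In feeder cells, 6 of 79 members (7.59%) had a log2 ratio of -0.5 or below, where 4.28% of all genes tested did, and none one of 0.5 or above, where 3.18% did. The 6 were Rpl29, Rps27rt, Rps29, Rps28, Rpl35 and Rpl38. Rpl6l stood at -0.47 there. The highest feeder cell ratios were those of Rpl7 at 0.30, Rps4x at 0.27 and Rps3a1 at 0.27, whose germ cell ratios were 0.10, 0.06 and 0.08. The intervals of 49 members lay wholly above 0 in feeder cells and those of 23 wholly below. As in germ cells, an interval that excludes 0 does not mark a member out. Germ and feeder cells came from the same 2 libraries, so their ratios are given side by side and are not separate evidence.

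The members also differed between germ and feeder cells, in both libraries. The choice of 2 marker pairs made the classes, and no member was used for it. As a group they were level: the log2 ratio of the summed members, germ over feeder, was -0.03 in the Chd4 siRNA library and 0.00 in the control library. The median of all 9277 genes with at least 200 UMIs was 0.45 in the Chd4 siRNA library and 0.38 in the control library. In germ cells of both libraries 4 members (5.06%) were at least 2-fold higher, where 30.4% of all genes were, and 5 (6.33%) at least 2-fold lower, where 16.7% were. The minimum was set on germ and feeder cells together. Germ cells held more UMIs, so genes high in germ cells passed it more easily, and the all-gene median and shares are no even background. TMM factors moved all germ over feeder ratios by -0.22 on the log2 scale in the Chd4 siRNA library and -0.18 in the control library, and DESeq2 size factors by -0.27 and -0.23 in these libraries. With TMM factors 2 members were higher and 5 lower by the same rule, and with DESeq2 size factors 1 and 6. Of the 79 members, 75 had the same sign in both libraries, a count given without its share over all genes.

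The 4 higher members were Rpl4, Rpl35a, Rps24 and Rpl10a. Rpl4 had 6436 CPM in germ cells and 2036 in feeder cells of the Chd4 siRNA library, a log2 ratio of 1.66 (1.63 to 1.70). Its control library values were 5635 CPM in germ cells and 1794 in feeder cells, a log2 ratio of 1.65. Rpl35a and Rps24, both mutated in Diamond-Blackfan anaemia in humans, had log2 ratios of 1.28 and 1.12 in the Chd4 siRNA library and 1.18 and 1.19 in the control library. Rpl10a stood at 1.03 in the Chd4 siRNA library and 1.08 in the control library.

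The 5 lower members were Rpl39, Rps4x, Rpl10, Rpl41 and Rps29. Rpl39 had 1375 CPM in germ cells and 7096 in feeder cells of the Chd4 siRNA library, a log2 ratio of -2.37 (-2.40 to -2.34). Control library values of Rpl39 were 1824 CPM in germ cells and 8786 in feeder cells, a log2 ratio of -2.27. Rps4x, a small subunit gene with a Y-linked partner in humans, had 812 CPM in germ cells and 4115 in feeder cells of the Chd4 siRNA library, a log2 ratio of -2.34. In the control library it had 780.1 CPM in germ cells and 3404 in feeder cells, a log2 ratio of -2.13. Rpl10, which joins the large subunit late in assembly, had 1259 CPM in germ cells and 3863 in feeder cells of the Chd4 siRNA library, a log2 ratio of -1.62. In the control library Rpl10 had 1239 CPM in germ cells and 3363 in feeder cells, a log2 ratio of -1.44. Rpl41 stood at -1.23 in the Chd4 siRNA and -1.16 in the control library, and Rps29 at -1.09 in the Chd4 siRNA and -1.06 in the control library.

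**Figure D4:**
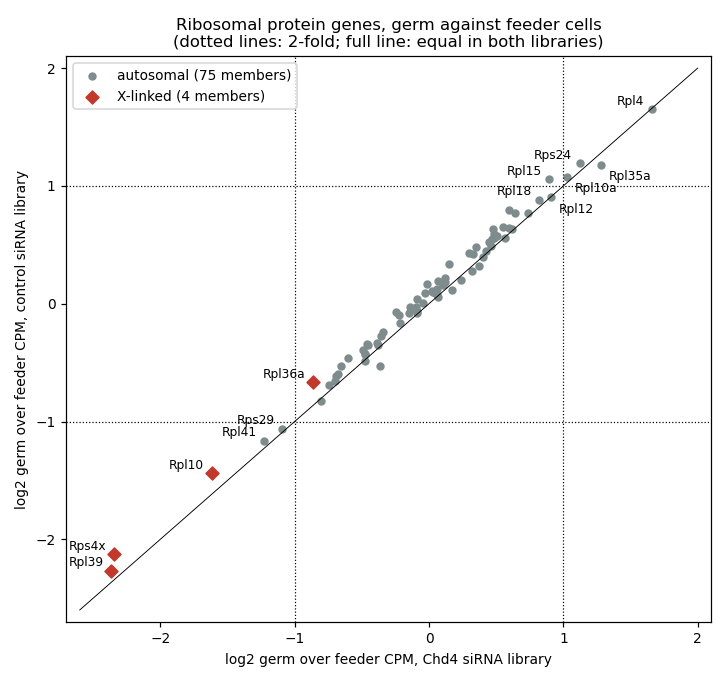
Log2 ratio of CPM, germ over feeder cells, for each member in the Chd4 siRNA library (horizontal axis) and the control siRNA library (vertical axis); red diamonds are the 4 X-linked members and grey circles the 75 autosomal ones. Members lie close to the line of equal values, with Rpl39, Rps4x and Rpl10 lowest and Rpl4 highest.

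Rpl39, Rps4x and Rpl10 lie on the X chromosome, a grouping that was looked up after these values were seen. The 4 X-linked members, with Rpl36a at -0.86 in the Chd4 siRNA and -0.67 in the control library as the fourth, had a median germ over feeder log2 ratio of -1.98 in the Chd4 siRNA library and -1.78 in the control library. The 75 autosomal members had a median of 0.06 and a minimum of -1.23 in the Chd4 siRNA library, and a median of 0.12 and a minimum of -1.16 in the control library. Of genes that reached 200 UMIs in germ and in feeder cells, the 124 other X-linked ones had medians of -0.70 in the Chd4 siRNA and -0.77 in the control library, and 39.5% of them were at least 2-fold lower in germ cells in both libraries. The medians of the 18 autosomes measured ran from -0.45 to 0.66 in the Chd4 siRNA library and from -0.44 to 0.47 in the control library. Lower germ cell values were thus shared by other genes of the X chromosome. Rpl36al, the autosomal copy of Rpl36a, had log2 ratios of -0.15 in the Chd4 siRNA and -0.08 in the control library. All windows of the last 300 bases of Rpl10 and Rpl36a occur in other annotated genes, so their counts are uncertain, whereas none of those of Rpl39 do.

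Paralogs that the rule left out went the opposite way for Rpl39 and Rpl10. Rpl39l, known in the mouse for its role in ribosomes of the testis, had 627 CPM in germ cells and 21.6 in feeder cells of the Chd4 siRNA library, a log2 ratio of 4.86 (4.54 to 5.20). In the control library it had 611 CPM in germ cells and 25.5 in feeder cells, a log2 ratio of 4.58 (4.27 to 4.92). Rpl10l, known in the mouse to replace Rpl10 in meiotic cells, had 54.7 CPM in germ cells and 5 UMIs in feeder cells of the Chd4 siRNA library, a log2 ratio of 5.30 (4.07 to 6.93). In the control library it had 58.4 CPM in germ cells and 2 UMIs in feeder cells, a log2 ratio of 6.53 (4.68 to 9.58). The 12 germ cell markers summed to 2785 CPM in germ cells and 94.8 in feeder cells of the Chd4 siRNA library, and to 2574 and 108 CPM in germ and feeder cells of the control library. The part of free or shared RNA in these feeder values was not tested.

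The other paralogs were less one-sided. Rpl22l1, which can replace Rpl22, had 4629.7 CPM in germ cells and 1826 in feeder cells of the Chd4 siRNA library, a log2 ratio of 1.34. Values in the control library were 4656 CPM in germ cells and 1697 in feeder cells, a log2 ratio of 1.46. Rpl22 itself stood at 0.43 in the Chd4 siRNA and 0.44 in the control library. Rps27l, a p53-responsive paralog of Rps27, was lower in germ cells, at log2 ratios of -1.62 in the Chd4 siRNA and -1.94 in the control library, and Rpl7l1 stood at 0.48 and 0.42 in these libraries. Between the siRNA groups these paralogs hardly differed in germ cells: the log2 ratios were 0.04 for Rpl39l, -0.10 (-0.25 to 0.06) for Rpl10l, -0.01 for Rpl22l1, 0.02 for Rps27l and 0.08 for Rpl7l1. Rps27l and Rpl39l have 252 and 153 coding bases, as do Rps27 and Rpl39, which stood at -0.49 and -0.41.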

How the data were processed

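Per the file headers, the deposited values are unnormalized counts of UMIs, with genes in rows and cells in columns. Cell Ranger 2.1.0, Seurat and mm10 are named in the submitters' processing notes; counting settings and cell filters are not given in the sources used here. Rows with no gene name (1105 of 27998; 12.6% of UMIs in the Chd4 siRNA and 12.1% in the control library), incomplete last cells and 2 cells under 1000 UMIs were left out.

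Counts were summed per library and class (12251236 and 11605456 germ, 3607230 and 3174545 feeder cell UMIs, Chd4 siRNA before control) and scaled to CPM. Log2 ratios have exact conditional binomial (Clopper-Pearson) 95% intervals and CPM exact Poisson intervals, for counting error only. No p-value was computed, and results of some genes are not reported here. Genes with at least 200 UMIs over both libraries were counted against bounds of -0.5 and 0.5, or, between classes, 2-fold in both libraries. The named members were those past a bound, the extremes between classes, the most abundant, the retrocopies and up to 4 per list; others describe a range. Members and lists were chosen with earlier results of these data known. Transcript lengths came from the GENCODE annotation of GRCm38.p6. Shared sequence was counted as 90-base windows within the last 300 bases. Scrublet (scanpy 1.11.5, expected rate 1%) called 6 Chd4 siRNA and 8 control cells doublets, which were kept. On simulated counts of the Chd4 siRNA over control siRNA germ cell comparison (26893 genes), intervals covered 95.4% of 6016 unchanged ratios. The simulation held Poisson counting error only, which the intervals assume. It checks the computation and does not cover spread between cells or libraries. Alternatives were TMM (edgeR 4.0.16) and DESeq2 1.42.0 scaling in R 4.3.3, other totals, per-cell means, cells thinned to 9000 UMIs, other cell and class rules, and other bounds and lengths.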

Additional observations from a re-analysis of the deposited data

Results flagged for a closer look

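For 5 of the members reported here the log2 ratio, Chd4 siRNA over control siRNA, had counting intervals on opposite sides of 0 in germ and feeder cells. The difference between the classes was not tested, since each rests on 1 library per group. Germ minus feeder, it was -0.20 for Rpl36a (-0.13 in germ cells, 0.06 in feeder cells), -0.19 for Rps25 and -0.16 for Rps15a. It was -0.10 for Rpl23a. For Rplp0, of the P stalk, it was 0.16, with 0.08 in germ cells and -0.09 in feeder cells. The flag depends on where a ratio lies relative to 0. The median member stood at 0.01 in germ cells and 0.07 in feeder cells. Members above 0 in both classes were not flagged, though Rps4x differed by -0.22 and Rpl7 by -0.20. Here too an interval that excludes 0 does not mark a member out. Rows past the end of the gene list, which no main comparison used, held 12.6% of UMIs in the Chd4 siRNA library and 12.1% in the control library.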

How the results depend on the processing

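The 7 members at a log2 ratio of -0.5 or below in germ cells stayed between -0.86 and -0.51 under every scaling, total, cell filter and class rule tried. The count was 16 at a bound of -0.3 and 0 at -1, and in feeder cells 13 and 0, against 6. The share of all genes at -0.5 or below was 10.5% with no minimum, 3.04% at 50 UMIs and 1.61% at 1000 UMIs. No paired analysis was possible because each group is 1 library, and no replicate could be left out. With 1 library per group, depth limits no member above, but the spread between replicates is unknown.

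Totals of the whole group moved with the scaling, by amounts that the construction of each factor sets. The summed log2 ratio in germ cells, -0.0535, was -0.101 with TMM factors, -0.0890 with DESeq2 size factors, -0.0805 with totals without the members and -0.0623 with totals that include unnamed rows. It was -0.0585 as a mean of per-cell CPM, -0.0419 in thinned cells, -0.0564 with a 3-fold marker margin, -0.0656 in germ cells with no Col1a1 or Fn1 UMI and -0.0451 over all kept cells. In feeder cells, -0.0184 became 0.0121 with TMM and 0.0347 with DESeq2, -0.0278 without the members and -0.0251 with unnamed rows. It was -0.0732 as a per-cell mean, -0.0367 in thinned cells and -0.0451 over all kept cells. The median member in germ cells, 0.0070, was -0.0407 with TMM, -0.0285 with DESeq2 and -0.0200 without the members. In feeder cells, 0.0661 was 0.119 with DESeq2, 0.0218 as a per-cell mean and 0.0250 over all kept cells. The Chd4 ratio in feeder cells, -1.55, was -1.19 as a per-cell mean and -1.13 over all kept cells. Values over all kept cells take germ and feeder cells together, mostly germ cells, so they are no feeder cell values.

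The summed germ over feeder ratio in the Chd4 siRNA library, -0.0349, was -0.257 with TMM, -0.302 with DESeq2, -0.0523 without the members and -0.0652 with unnamed rows. It was -0.0131 in thinned cells and 0.0219 as a per-cell mean. In the control library, 0.00024 was -0.175 with TMM, -0.225 with DESeq2, -0.0279 with unnamed rows, -0.0079 in thinned cells, 0.0072 as a per-cell mean and 0.0054 with the 3-fold margin. Members at least 2-fold higher in germ cells numbered 2 with TMM and 1 with DESeq2, against 4.

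The median of the shortest members, -0.37 in germ and -0.31 in feeder cells by median transcript length, was -0.47 and -0.38 by longest coding transcript. It was -0.131 and -0.0683 by principal transcript and -0.47 and -0.38 by coding length up to 300 bases, both chosen after seeing the data. Single genes near 0 changed sign. With TMM these were Rps24 (-0.0033), Rpl23 (-0.0191) and Rpl12 (-0.00079) in germ cells and Rplp1 (0.0038) in feeder cells. With DESeq2 they were Rpl23 (-0.0069) in germ cells and Rplp1 (0.0264) and Rps18 (0.0027) in feeder cells. Rpl5 stood at -0.0121 in feeder cells as a per-cell mean and Rps4x at -0.0735 in germ cells with no fibroblast UMI. Over all kept cells, mostly germ cells, Dkc1 stood at 0.0877 and Rplp0 at 0.0359, opposite in sign to their feeder cell values. The cause was not tested in the cell-based cases. Of 860 values of single named genes under an alternative, 655 moved by less than their counting error, 194 by more and 11 changed sign.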
